A study of Cricetulus griseus with 10 samples.

Results

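Heparan sulfate sits on the cell surface on a small set of core proteins, and 10 genes of that system were followed here: the extracellular sulfatases Sulf1 and Sulf2, the syndecans Sdc1, Sdc2, Sdc3 and Sdc4, and the glypicans Gpc1, Gpc3, Gpc4 and Gpc6. They were taken as rows of a deposited table of 25156 features, 4 by symbol and 6 by Chinese hamster NCBI Gene number, and all 10 were found. The numbers are 100761785 for Sdc2, 100762010 for Sdc3, 100760006 for Sdc4, 100751141 for Gpc1, 100768919 for Gpc3 and 100767906 for Gpc6. RNA sequencing had been done on wild type CHO-K1 cells, a permanent line derived from Chinese hamster ovary, during adaptation to suspension culture in the medium SFM4CHO. There were 2 libraries at each of passages 0, 2, 4, 6 and 10 (P0, P2, P4, P6 and P10), 10 in all. The labels describe neither the culture of the P0 cells nor whether duplicates were separate cultures, so p-values measure the spread between these libraries, which may be technical. Passage number and time in the medium cannot be told apart.

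Heparan sulfate is a long sugar chain whose sulfate groups bind growth factors, morphogens, chemokines and matrix proteins. Syndecans span the membrane, carry the chains outside and contact the cytoskeleton inside, whereas glypicans are held by a lipid anchor. Sulf1 and Sulf2 are secreted enzymes that remove 6-O-sulfate from finished chains and so change which ligands bind. CHO-K1 cells are a classical system for this sugar, since mutants of the line were used to find enzymes of its synthesis.

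Reads assigned to genes ranged from 8394219 to 16599495 per library. Duplicates of P0, P2 and P4 correlated across features at 0.988 to 0.992 (log2 scale), those of P6 at 0.956 and those of P10 at 0.930. On the first principal component P6 replicate 2 (83.3), P10 replicate 1 (67.4) and P6 replicate 1 (34.4) stood apart from the other 7 libraries (-37.3 to -18.8), among them P10 replicate 2 (-25.0). Of the 5 fibroblast markers, Vim ranged from 12373 to 23048 normalised reads, Col1a2 stayed under 5 and Thy1 was at 0 in every library. Of the 5 epithelial markers, Krt8, Krt18 and Krt19 stayed under 5 in every library. Epcam ranged from 2.87 to 16.4 and Cdh1 from 50.6 to 337. The 7 leukocyte markers summed to 52.3 and 60.4 normalised reads at P0 and to between 102 and 215 later, mostly through Itgax and Cd68. In P6 replicate 2 and P10 replicate 1, Laptm5 (43.8 and 33.8) and Ptprc (29.2 and 24.5) were above Itgax (19.1 and 18.6). Both were below Itgax in the other libraries after P0. Itgax, near 0 at P0, rose at all 4 later passages and Cd68 at P4 and P6, whereas the T cell marker Cd3e stayed under 2 in every library. Col1a1 rose at P2 and P4 and Pdgfrb at P4 among the 3 tested of 5 fibroblast markers, and none of the tested epithelial (1) and endothelial (2) markers was called by limma or edgeR, with 1 epithelial marker at an unadjusted p under 0.05 (P6). Of the 10 fits that each left out 1 library, Itgax passed in all at every passage, Cd68, Col1a1 and Pdgfrb in 4 each at P4, Col1a1 in 7 at P2 and Cd68 in 7 at P6. The part of these markers in the results was not tested.

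Values are read counts that the authors normalised with DESeq, called normalised reads below. They are not divided by gene length, so levels are compared between libraries and never between genes. Of the 10 genes, 7 had a mean of at least 10 and were tested with limma on log2(value + 1), so fold changes are on that scale. Sulf1, Sdc3 and Gpc4 had lower means and are given as values. A gene was called at a Benjamini-Hochberg adjusted p under 0.05 over all 13521 features tested.

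**Figure D1:**
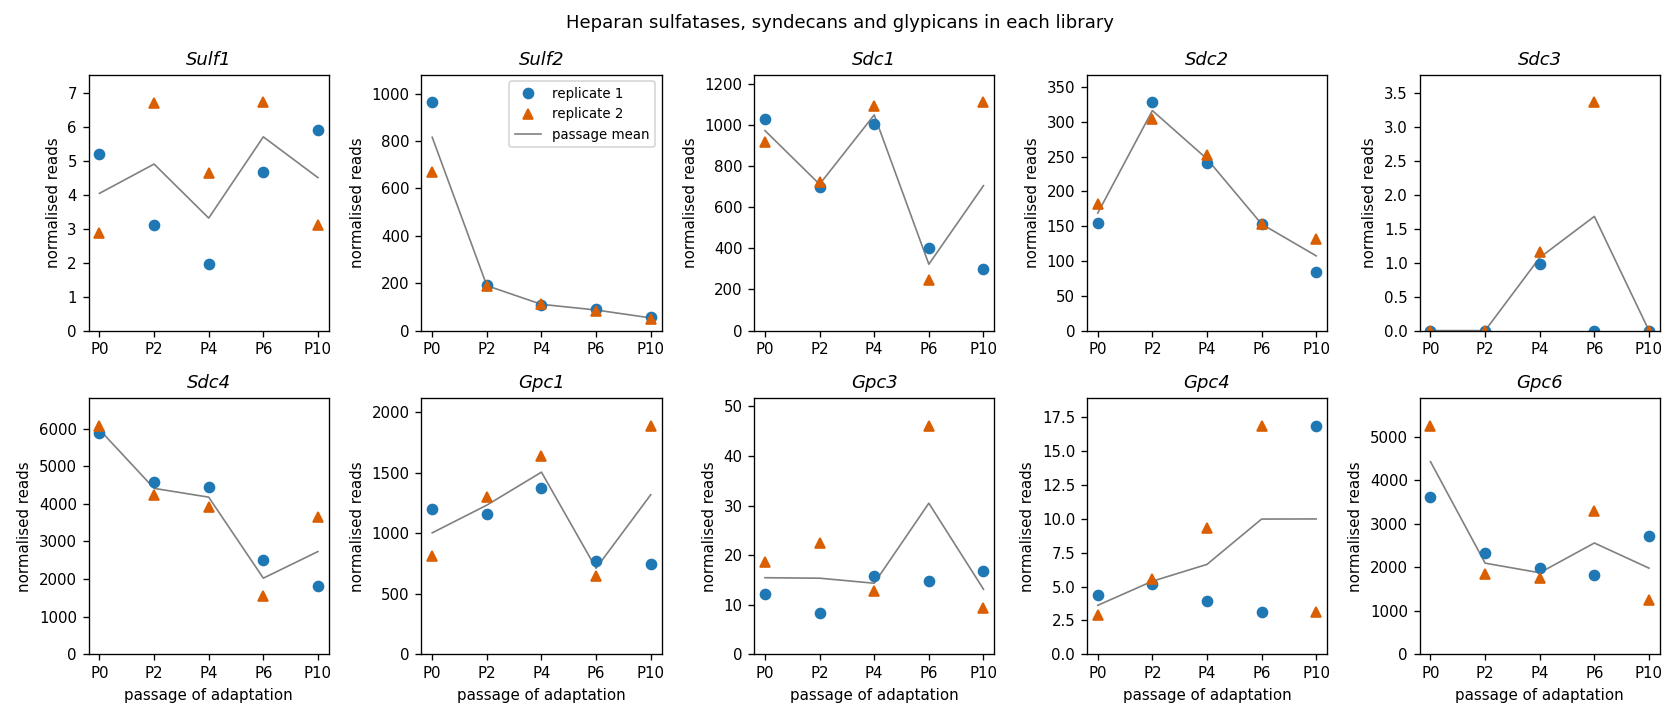
Normalised reads (vertical axes, each from 0) of the 10 genes in the 10 libraries by passage, with circles for replicate 1, triangles for replicate 2 and a line through the passage means. Sulf2 falls from 816 at P0 to 53.6 at P10 without overlap between passages, and the duplicates of Sdc1, Sdc4 and Gpc1 part at P10.

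Sulf2 fell at every later passage against P0. Its libraries had 964 and 668 normalised reads at P0 and 192 and 188 at P2, followed by 109 and 113 at P4, 90.8 and 83.1 at P6, and finally 56.5 and 50.7 at P10. Every library of a passage lay below every library of the passage before it. Of all features tested, 0.155% (21 of 13521) were ordered in this way over all 5 passages, and Sulf2 was the only one of the 7 tested genes among them. The order was noticed in the data and is given as a description.

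Against P0 the log2 change of Sulf2 was -2.08 at P2 (SE 0.23, adjusted p = 0.00226), -2.84 at P4 (adjusted p = 0.000312) and -3.19 at P6 (adjusted p = 0.000150). At P10 it was -3.88 (adjusted p = 6.71e-05), a 14.7-fold lower level. These 4 comparisons share the P0 libraries, and a pooled spread gives each of them the same SE. Sulf2 passed in all 22 alternatives at each of the 4 passages, with a highest adjusted p of 0.0464, reached at P2 in a fit without 1 library. The largest step lay before P2. The later steps were -0.77 from P2 to P4 (unadjusted p = 0.00806), -0.35 from P4 to P6 (unadjusted p = 0.157) and -0.69 from P6 to P10 (unadjusted p = 0.0142), and none was called (adjusted p = 0.9999, 0.311 and 0.499). In bulk RNA, fewer cells with a transcript and less transcript per cell cannot be told apart.

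Sulf1, the second enzyme of the pair, was near the limit of detection throughout. Its libraries held 2 to 7 reads each, with 8 reads over both P0 libraries and 11 over both P10 libraries. The passages overlapped one another in every pair of neighbouring means, and no difference was detectable at this depth.

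By limma, Sulf2 was the only one of the 7 tested genes called at P2 and at P4, beside 4.15% of all features called at P2 and 9.24% at P4. At P6 and P10 the called genes were Sulf2 and Sdc4, 2 of 7, beside 21.0% of all features at P6 and 17.0% at P10. All of these calls were falls, and the shares of all features called lower were 2.07%, 5.52%, 10.5% and 8.25% at P2, P4, P6 and P10, beside 2.08%, 3.72%, 10.5% and 8.77% called higher. The median log2 change of the 7 genes was -0.44 at P2, -0.08 at P4, -0.83 at P6 and -0.75 at P10. Over all features it lay between -0.07 and 0.03.

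**Figure D2:**
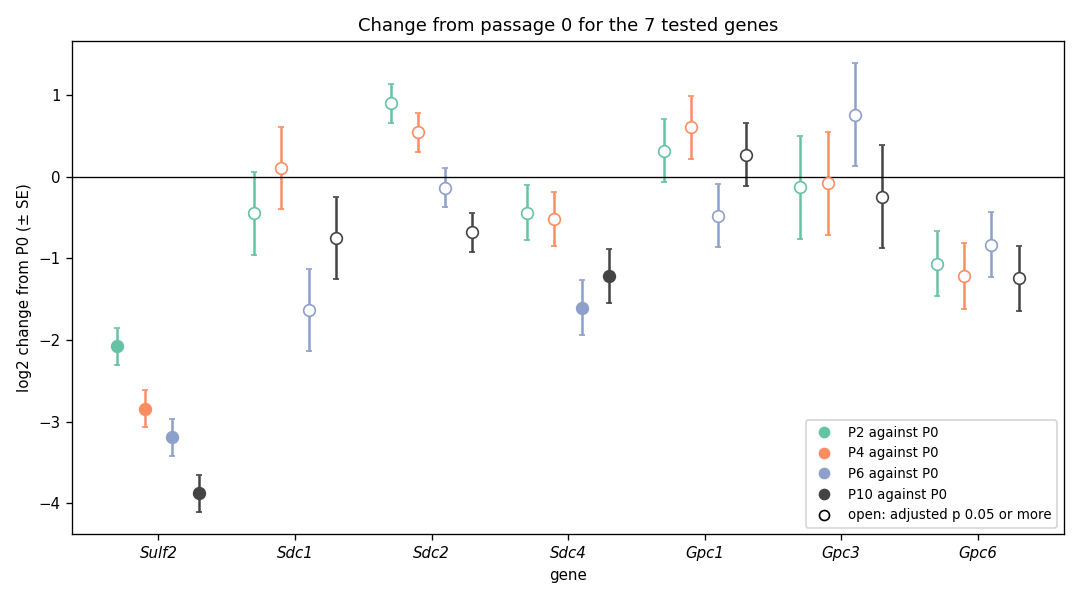
Log2 change from P0 (vertical axis, with the standard error from the pooled fit) of the 7 tested genes at P2, P4, P6 and P10, where filled points have an adjusted p under 0.05. Filled points are Sulf2 at all 4 passages, from -2.08 to -3.88, and Sdc4 at P6 (-1.60) and P10 (-1.22).

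Sdc4, the syndecan found in focal adhesions and a partner of protein kinase C alpha, was lower at the late passages. Its libraries had 5871 and 6071 normalised reads at P0 and 4578 and 4242 at P2, followed by 4444 and 3908 at P4, 2501 and 1545 at P6, and finally 1809 and 3652 at P10. Both P0 libraries were above every later library. The P6 libraries and P10 replicate 1 were the lowest, and P10 replicate 2 lay just under the P4 libraries.

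The log2 change of Sdc4 was -1.60 at P6 (SE 0.33, adjusted p = 0.0136) and -1.22 at P10 (SE 0.33, adjusted p = 0.0387). At P6 it no longer passed once P0 replicate 1 (adjusted p = 0.0930), P0 replicate 2 (0.0852) or P6 replicate 2 (0.0687) was left out. The same held at P10 without either library of P0 (0.180 and 0.164), P2 (0.0718 and 0.0717) or P4 (both 0.0721), and without P10 replicate 1 (0.0908), where the change was -0.71. At P2 (-0.44, adjusted p = 0.565) and P4 (-0.52, adjusted p = 0.391) Sdc4 was not called. It passed at both (adjusted p = 0.00598 and 0.00157) when P6 replicate 2 and P10 replicate 1 were left out together.

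Sdc1, the main syndecan of epithelial cells, had its lowest values in the same 3 libraries. There were 1030 and 914 normalised reads at P0 and 698 and 724 at P2, followed by 1005 and 1091 at P4, 401 and 244 at P6, and finally 299 and 1110 at P10. The P6 libraries lay below those of P0, P2 and P4, and the 2 P10 libraries lay on opposite sides of the P2 level. The log2 difference from P0 at P6 was -1.63 (SE 0.50) with an adjusted p of 0.0505, just over the threshold. It passed in 7 of the 22 alternatives, among them DESeq2 (adjusted p = 0.00767) and the limma fits without P10 replicate 1 or P10 replicate 2. At P10 the difference was -0.75 (adjusted p = 0.344), and it took the value -1.70 without P10 replicate 2 (adjusted p = 0.00188) and 0.19 without P10 replicate 1.

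Sdc2, a syndecan of mesenchymal cells, had another order. Its libraries had 155 and 183 normalised reads at P0 and 328 and 304 at P2, followed by 240 and 253 at P4, 153 in both at P6, and finally 83.5 and 131 at P10. Passages did not overlap, with P2 highest, then P4, P0, P6 and P10, although P0 (lowest 155) and P6 (highest 153) nearly met. The share of all features with passages apart in any order was not computed. The log2 difference from P0 was 0.90 at P2 (SE 0.24, adjusted p = 0.0785), 0.55 at P4 (adjusted p = 0.203) and -0.68 at P10 (adjusted p = 0.0848), and none was called by limma. DESeq2 called the rise at P2 (0.91, adjusted p = 0.0177). Leaving out 1 library brought calls at P2 (0.0114 without P10 replicate 1, 0.0120 without P10 replicate 2), at P4 (0.0455 and 0.0485 likewise) and at P10 (0.00627 without P10 replicate 2).

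Sdc3, known best from the nervous system, was barely detected. It had 1 read in each P4 library, 3 reads in P6 replicate 2 and none in the other 7 libraries.

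Gpc1, the glypican of widest expression, had 1199 and 811 normalised reads at P0 and 1164 and 1303 at P2, followed by 1374 and 1639 at P4, 775 and 648 at P6, and finally 749 and 1889 at P10. The P6 libraries were below those of P0, P2 and P4, and P10 replicates 1 and 2 were the second lowest and the highest of all 10. No comparison with P0 was called (log2 differences 0.32, 0.61, -0.48 and 0.27, lowest adjusted p = 0.379). At P10 the difference was 0.94 without P10 replicate 1 (adjusted p = 0.0309) and -0.40 without P10 replicate 2, so the direction rested on which P10 library was kept.

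Sdc1, Sdc4 and Gpc1 thus each had their 3 lowest values in P6 replicates 1 and 2 and P10 replicate 1, the libraries highest on the first principal component. This order, noticed in the data, held for 3 of the 7 tested genes and for 15.9% of all features tested. The same 3 libraries had the lowest medians of log2 values over all features tested (7.92 to 8.06, beside 8.11 to 8.16 in the other 7). The 5 epithelial markers, most of it Cdh1, summed to 64.0 to 109 normalised reads in those 3 libraries and to 181 to 351 in the other 7. Cdh1 was at 50.6 to 90.0 in the 3 and 164 to 337 in the 7, whereas Epcam was at 11.2 to 16.4 and 2.87 to 12.8. The part of these markers and of the lower medians in the result was not tested.

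Gpc6, a glypican of mesenchymal and growth plate cells, was highest at P0. Its libraries had 3609 and 5256 normalised reads at P0 and 2341 and 1853 at P2, followed by 1996 and 1755 at P4, 1815 and 3306 at P6, and finally 2726 and 1238 at P10. Both P0 libraries were above every later one, a feature shared with Sulf2 and Sdc4 (3 of 7, beside 15.4% of all features). P6 replicate 2 and P10 replicate 1 were the highest of the later libraries, the reverse of their place for Sdc1 and Sdc4.

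The log2 differences of Gpc6 from P0 were -1.06 at P2 (SE 0.40, adjusted p = 0.197), -1.22 at P4 (adjusted p = 0.0980), -0.83 at P6 (adjusted p = 0.164) and -1.25 at P10 (adjusted p = 0.0652), none of them called by limma. DESeq2 called Gpc6 lower at P4 (adjusted p = 0.0287) and P10 (adjusted p = 0.0295). Gpc6 passed at P2, P4 and P6 without P10 replicate 1 (0.0467, 0.0195 and 0.0470) or P10 replicate 2 (0.0464, 0.0192 and 0.0466), and at P10 without P10 replicate 1 (log2 change -1.81, adjusted p = 0.0105). Gpc5, a close relative of Gpc6, had a like course, with 4042 and 4924 normalised reads at P0, 3589 in P6 replicate 2 and 3164 in P10 replicate 1, and 1081 to 2377 in the other 6 libraries. Log2 values of Gpc5 and Gpc6 correlated at r = 0.98 over the 10 libraries, which share depth and scaling. With all 10 libraries Gpc5 was not called by limma in any comparison with P0 (lowest adjusted p = 0.0937). Of the 10 fits that each left out 1 library, it passed in 2 at P4 and in 1 at P10.

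Gpc3, a glypican that binds Hedgehog and Wnt proteins, stayed low. It had 12.2 and 18.7 normalised reads at P0 and 8.33 and 22.4 at P2, followed by 15.8 and 12.8 at P4, 14.9 and 46.1 at P6, and finally 16.9 and 9.36 at P10. All neighbouring passages overlapped, P6 replicate 2 stood alone at the top, and the lowest adjusted p against P0 was 0.392. Gpc4, another glypican of developing tissues, had 2 to 20 reads per library. Its highest normalised values, 16.9 in both P6 replicate 2 and P10 replicate 1, were each beside a duplicate at 3.1, and the other 6 libraries had 2.87 to 9.32.

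Between neighbouring sampled passages no feature (0.0%) was called by limma or edgeR. At an unadjusted p under 0.05 there were 285 features (2.11%) from P2 to P4, with Sulf2 the only tested member of the 10 genes among them. From P4 to P6 there were 3450 (25.5%), among them Sdc1 (-1.74), Sdc2 (-0.68), Sdc4 (-1.08) and Gpc1 (-1.08). From P6 to P10 there were 1273 (9.41%), among them Sulf2. DESeq2 called 10, 463 and 67 features in these 3 steps, of which only Sdc1 from P4 to P6 (adjusted p = 0.0305) is one of the 10 genes. Without P10 replicate 1 the P4 to P6 step had 3673 features called, with Sdc1, Sdc2, Sdc4 and Gpc1 all lower, and without P10 replicate 2 it had 3676, with these 4 genes again called. From P6 to P10 the size of the change rested on which P10 library was kept. Without P10 replicate 1 the log2 changes were 1.82 for Sdc1, 0.89 for Sdc4 and 1.41 for Gpc1. Without P10 replicate 2 they were -0.07, -0.12 and 0.08.

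Among 9272 named features with a mean of at least 50, the courses most like that of Sulf2 over the 10 libraries were those of Dsp (r = 0.995), Znf217 (0.989) and Boc (0.985). Dsp encodes desmoplakin of desmosomes and Boc a surface receptor for Hedgehog proteins. Dsp had 1295 and 989 normalised reads at P0 and 130 and 103 at P10. For Sdc4 the nearest were Abcc5 (r = 0.986), Pink1 (0.985) and Slc35e2 (0.984). The libraries share depth and scaling, and these values are descriptions.

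**Figure D3:**
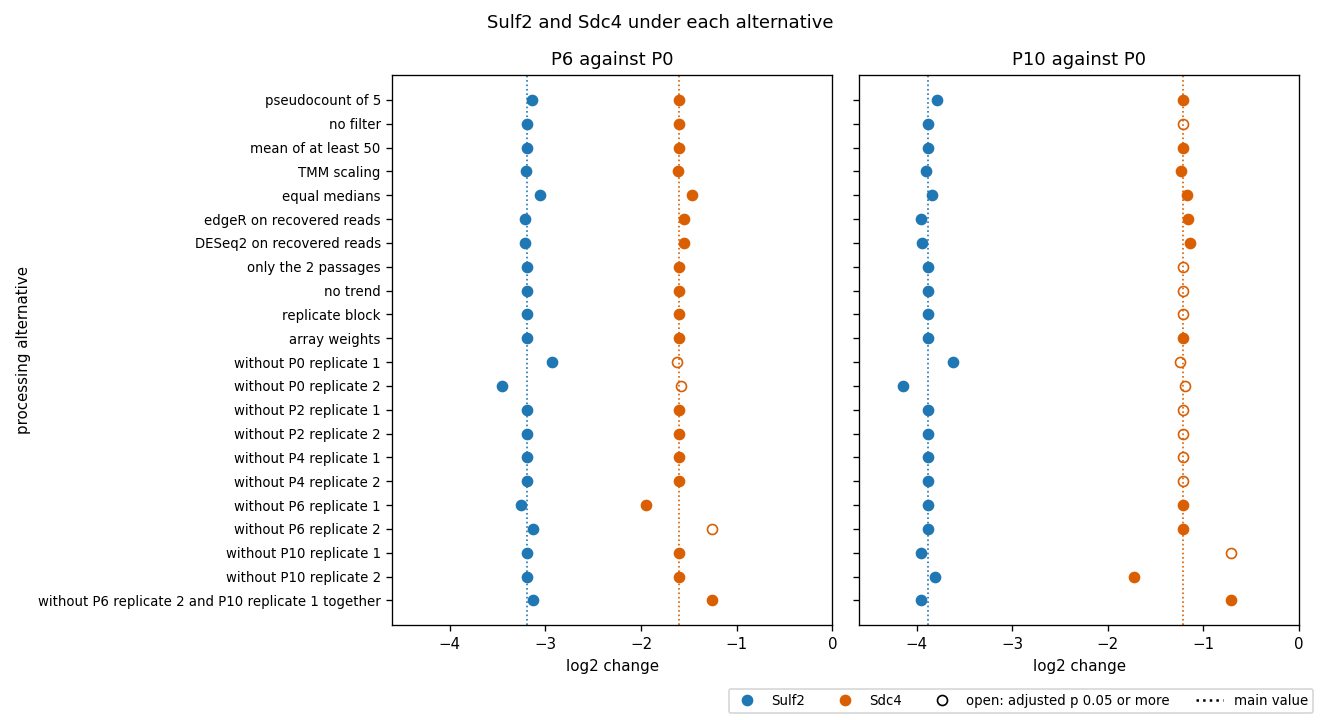
Log2 change of Sulf2 and Sdc4 at P6 and P10 against P0 (horizontal axes) under each of the 22 processing alternatives (rows), with filled points for an adjusted p under 0.05 and dotted lines at the main values. Sulf2 stays filled in every row, between -4.15 and -2.93, and Sdc4 is open in 3 rows at P6 and in 11 at P10.

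Genes that build, cut and use the same sugar were read from lists. Of 28 genes of heparan sulfate chain synthesis, 24 were matched and 17 tested. By limma none was called at P2 and 1 at P4 (Ext1), beside 4.15% and 9.24% of all features. At P2, 4 of the 17 had an unadjusted p under 0.05, beside 18.6% of all features. DESeq2 called 1 at P2 and 2 at P4, and edgeR none and 2. Over all features DESeq2 called 1061, 1818, 3543 and 3021 at P2, P4, P6 and P10. edgeR called 502, 1202, 2762 and 2348, and limma 561, 1250, 2841 and 2301. By limma, 2 rose and 5 fell at P6, 7 of 17 beside 21.0% of all features. At P10, 1 rose and 2 fell, 3 of 17 and so near the 17.0% of all features, with a list median of -0.46 at P10 beside 0.00 over all features. Ext1, a subunit of the enzyme that extends the chain, fell from 1115 and 1551 normalised reads at P0 to 700 and 596 at P10 (log2 change -1.02, adjusted p = 0.0240). Ndst2, an N-deacetylase and N-sulfotransferase, fell from 415 and 289 to 87.8 and 170 (-1.49, adjusted p = 0.0157). Fam20b, a kinase that acts on the linkage sugars, rose by 0.59 (adjusted p = 0.0395). At P10 edgeR called 2 genes of the list and DESeq2 5. At P6 the genes that fell also included Ndst1 (-0.84), Extl1 (-1.20) and the 6-O-sulfotransferase Hs6st1 (-1.50), which adds the sulfate that Sulf2 removes, and Pxylp1, the phosphatase opposed to Fam20b, rose (1.02).

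None of the 9 tested genes of sulfate donor and sugar supply was called at any passage by limma, nor any of 10 tested genes of chondroitin sulfate synthesis, the sister sugar. At an unadjusted p under 0.05 there were 2, 1, 3 and 1 genes of the first list at P2, P4, P6 and P10. The second list had 1, 1, 5 and 2. Of all features, 18.6%, 24.1%, 37.7% and 32.7% had such a p at these passages. edgeR called no gene of either list. DESeq2 called 1 gene of the first list (at P2) and 3 times a gene of the second (1 at P4, 2 at P6). Of 11 tested genes of heparan sulfate breakdown, 3 fell at P6 (Idua, Arsg and Sumf2) and 1 at P10, the lysosomal iduronidase Idua (-1.56, adjusted p = 0.00786). DESeq2 called 4 of these 11 at P6 and 2 at P10, and the limma counts stand beside 21.0% and 17.0% of all features, near and below those shares. Of 8 other tested carriers of the sugar, 2 fell at P6 and 3 at P10, namely the TGF-beta coreceptor Tgfbr3 (-1.11), agrin Agrn (-1.06) and the basement membrane collagen Col18a1 (-1.40). The counts stand beside the same 21.0% and 17.0%. By DESeq2 there were 1 at P2, 2 at P4, 3 at P6 and 3 at P10. Over all features DESeq2 called more than limma at each passage (1061, 1818, 3543 and 3021 beside 561, 1250, 2841 and 2301). By limma no gene of the breakdown or carrier list rose. The shares of all features called higher were 2.08%, 3.72%, 10.5% and 8.77% at P2, P4, P6 and P10.

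Syndecan tails bind scaffold and cytoskeletal proteins. Of 11 tested partners, 1 fell at P4, 1 rose and 4 fell at P6, and 1 rose and 2 fell at P10. At P10 edgeR called 5 of them and DESeq2 6, beside 2348 and 3021 of all features (limma 2301). The shares of all features called by limma were 9.24%, 21.0% and 17.0%, and 1 of 11 at P4 is near the first. Prkca, the protein kinase C alpha that Sdc4 binds, fell at P4, P6 and P10 (-1.32, -1.15 and -1.25), and the actin crosslinker Actn4 at P6 and P10 (-1.37 and -1.28). Ezr, the membrane linker ezrin, rose at P6 and P10 (1.08 and 1.26). Src and Pdcd6ip, the other partners that fell at P6, changed by -1.58 and -0.71. Of 6 tested genes of shedding, Mmp2 rose from 10.5 and 7.19 normalised reads at P0 to 52.3 and 85.1 at P10 (2.81, adjusted p = 0.00319). Mmp14, a membrane protease that cleaves syndecans, fell (-1.34, adjusted p = 0.00963). At P6 the same 2 genes were called, with changes of 1.51 and -0.84. The 2 of 6 at each passage stand beside 21.0% and 17.0% of all features.

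Heparin-binding ligands and their receptors had calls in both directions at every passage. Of 15 tested, 3 rose and 1 fell at P2, 3 rose and 2 fell at P4, and 3 rose and 3 fell at P6 and at P10. These 4, 5, 6 and 6 of 15 stand beside 4.15%, 9.24%, 21.0% and 17.0% of all features. Fgf2, a growth factor that needs heparan sulfate to signal, fell from 1680 and 1137 normalised reads at P0 to 444 and 427 at P2 and 262 and 364 at P10 (-2.16, adjusted p = 0.00138). Its receptor Fgfr1 fell at P6 (-1.58) and P10 (-1.24). Fgf7 rose from 203 and 264 at P0 to 4810 and 5807 at P6 and 3244 and 1531 at P10 (3.26, adjusted p = 0.000952), and Fgfr2, the gene of its receptor, rose at P10 (2.66, adjusted p = 0.00423). The Hedgehog receptor Ptch1 rose at all 4 passages (1.19 at P10), Hgf at P2, P4 and P6 (1.25 at P6), and the chemokine Cxcl12 fell at P6 and P10 (-1.63 and -1.10). Met, the Hgf receptor, fell at P4 (-0.68).

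Many of the calls in these lists depended on single libraries, as did those over all features, whose ranges are given at the end. The losses are thus not a trait of the lists alone. Of 18 list genes called at P10, Fgf2, Fgf7 and Mmp2 passed in all 10 fits that left out 1 library. Without P0 replicate 1, 14 of the 18 calls were lost, and without P0 replicate 2, 10 were lost, among them Actn4, Agrn, Col18a1, Cxcl12, Ext1, Ezr, Fam20b, Ndst2 and Prkca in both. Without either P4 library Col18a1, Ext1 and Fam20b were lost, and Fam20b also without either P2 library or P10 replicate 1 (highest adjusted p = 0.218 over all of these). At P6, 5 of 25 passed in all 10 fits (Cxcl12, Fgf2, Fgf7, Hgf and Ptch1), with 20 lost without P0 replicate 1 and a highest adjusted p of 0.271. At P4, Fgf7 and Ptch1 did so of 7 (highest adjusted p = 0.239). At P2 none of 4 did, all of them being lost without P2 replicate 2 (highest adjusted p = 0.255).

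**Figure D4:**
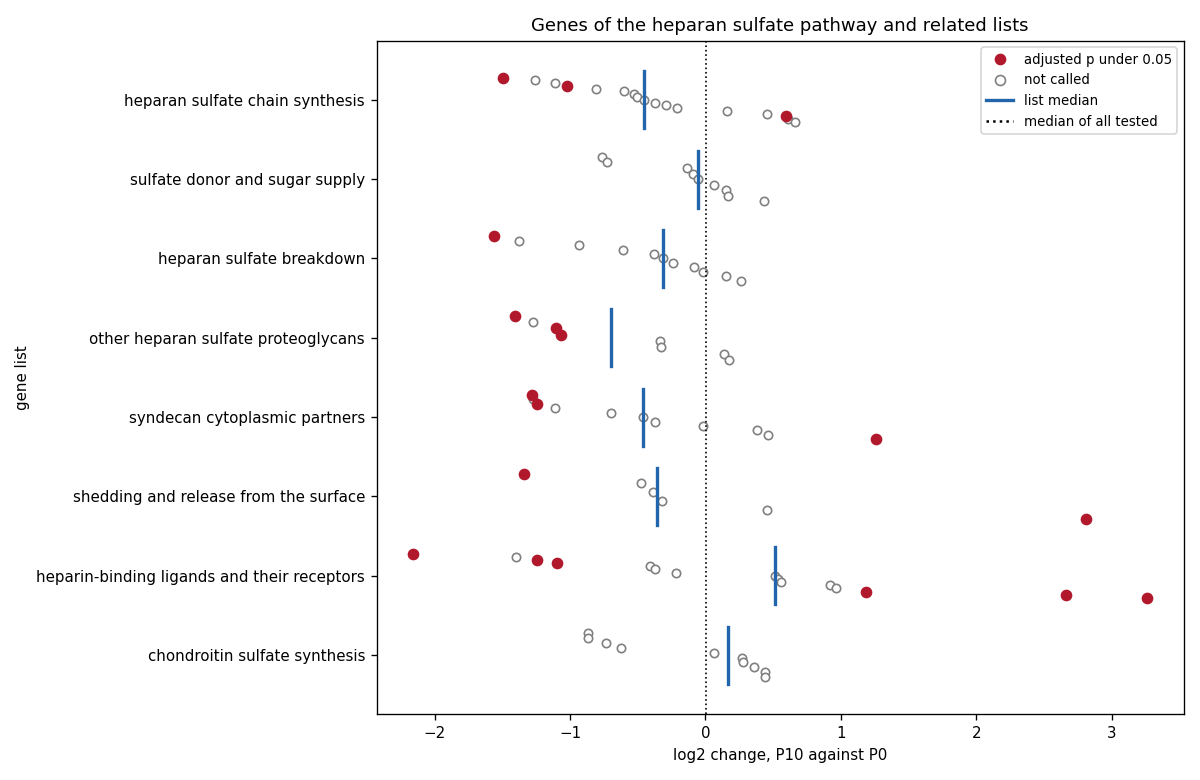
Log2 change at P10 against P0 (horizontal axis) of each tested gene of 8 lists (rows), filled where the adjusted p was under 0.05, with a bar at each list median and a dotted line at the median of all features. The medians run from -0.70 for the other heparan sulfate proteoglycans to 0.51 for the heparin-binding ligands and receptors.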

How the data were processed

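The deposited signal is, per the submitters' processing notes, read counts normalised by the authors with DESeq. The aligner, counter, genome build and gene models were not given in the sources used here. Per the labels' protocols, ribosomal RNA was removed and stranded libraries were made. Dividing a column by its step, the worth of 1 read, gave whole numbers for 100% of values, within 0.01 reads. Reads were recovered by that step, less certainly for P4 replicate 1, whose step is near 1. Of 20050 numbered features, 16386 were matched to RefSeq symbols (CriGri-PICRH-1.0). No protein or promoter sequences were used here.

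The main test was limma 3.58.1 (R 4.3.3) on log2(value + 1), with a trended prior and a mean per passage over all 10 libraries, for features with a mean of at least 10. It was two-sided, and p-values were adjusted per comparison by the Benjamini-Hochberg method. Alternatives included edgeR 4.0.16 and DESeq2 1.42.0 on recovered reads. The steps were tested on simulated data. The 10 genes and the lists were chosen with earlier results of these data known. From each list up to 4 genes with the smallest p at P10 are named, plus all called genes where 6 or fewer. Hs6st1, Ndst1, Pxylp1, Cxcl12, Fgfr1, Hgf and Met were named after their values were seen.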

Additional observations from a re-analysis of the deposited data

How the results depend on the processing

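Of 49 log2 changes of the 7 tested genes, recomputed 1071 times in all, 27 recomputed values changed sign, none of them where a call was made. Calls were lost 14 times, all for Sdc4, and gained 77 times (Sdc1 19, Gpc6 17, Sdc2 15, Sdc4 12, Gpc1 11 and Sulf2 3). Features called against P0 were 561, 1250, 2841 and 2301 at P2, P4, P6 and P10, with 1, 1, 2 and 2 of the 10 genes. Leaving out 1 library gave 61 to 1578, 143 to 2783, 412 to 5441 and 315 to 4738 features, and 1 to 3, 1 to 3, 1 to 4 and 1 to 4 of the genes. For the steps P2 to P4, P4 to P6 and P6 to P10 (none called) it gave 0 to 9, 0 to 3676 and 0 to 2936 features, and 0, 0 to 4 and 0 to 3 genes.

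Without P6 replicate 2 and P10 replicate 1 together there were 4616, 5829, 6595 and 6256 features and 5, 5, 4 and 4 genes against P0, and 220, 3712 and 3610 features with 1, 4 and 4 genes in the steps. Using only the 2 passages compared gave 3940 (P2), 5677 (P4) and 49 (P10) features with 5, 5 and 1 genes, and 569 and 4 features in the first 2 steps, with 2 genes called from P2 to P4. Array weights gave 4131 (P2), 5683 (P4) and 804 (P10) features, 4 genes at P2 and 5 at P4, and 310 and 1689 features with 1 and 3 genes in the first 2 steps. DESeq2 gave 1061 features at P2, 2 genes at P2 and 2 at P4, and 10, 463 and 67 features in the steps, with 1 gene from P4 to P6. edgeR called 502, 1202, 2762 and 2348 features against P0. At P10, 1 gene was left with no filter, with no trend and with the replicate block, where Sdc4 had adjusted p = 0.0536, 0.0566 and 0.0682. The replicate block gave 261 features at P2 and 767 at P4. Replicate numbers are shared across passages. Deviations of same-numbered libraries correlated between -0.670 (P6 with P10) and 0.225 (P2 with P10) over 10 pairs of passages. Such correlations cannot tell whether the numbers pair the libraries, and the labels do not say. With equal medians 60.7% of the calls at P6 were rises, beside 49.9% as deposited, and the median change of all features moved from -0.07 to 0.07 there, with Sulf2 and Sdc4 still called lower. The cause of these shifts was not tested, and some of the fits also had fewer libraries. At the depth of these libraries Sulf1, Sdc3 and Gpc4 were too low to compare.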
